A study of Mus musculus with 6 samples.

Results

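The 36 genes described here encode aminoacyl-tRNA synthetases, 20 for the cytosol and 16 for mitochondria. They are part of a table of S2 and S3 proximal tubule transcripts with 32544 genes in all. The rule that picks them goes by gene symbol and uses no measured value, and Mars is the symbol under which the table lists the methionyl enzyme of the cytosol. All 36 passed the filter on low values. RNA came from hand-dissected S2 and S3 segments of the proximal tubule of C57Bl/6 mice, collected 24 h after aristolochic acid I at 3 mg/kg (AA, 3 libraries) or after the solvent DMSO (3 libraries). Aristolochic acid I is a plant toxin that injures the proximal tubule and binds covalently to DNA, and the comparison asks how transcripts of these segments differ after it. From each kidney 5 to 10 tubules went into 1 pool, so a library stands for a few tubules and not for a whole kidney. Nothing in the labels ties the libraries to separate animals, and p-values measure only the spread between these libraries.

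Aminoacyl-tRNA synthetases join each amino acid to its matching tRNA before the ribosome uses it. Cytosol and mitochondria mostly have separate enzymes, all encoded in the nucleus, and the mitochondrial ones carry a 2 at the end of the symbol. Kars and Gars encode both the cytosolic and the mitochondrial form of their enzyme, and mitochondria obtain glutaminyl-tRNA by another route, so that Qars has no mitochondrial partner. Several cytosolic synthetases are held together with scaffold proteins in the multisynthetase complex. In mammals the transcription factor ATF4, made when amino acids run short or proteins misfold, is known to raise the transcription of many cytosolic synthetases through short elements in or near their promoters. The proximal tubule is known for its dense mitochondria and its high protein turnover.

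The libraries held 13304877, 17815915 and 13926322 reads in AA, against 23896026, 31136251 and 15958557 reads in DMSO. Expression is given as CPM, reads scaled to a common library total. Summed CPM of 10 proximal tubule markers was 9606, 7850 and 9255 in AA, against 19180, 19750 and 14350 in DMSO, and none of the 10 was at 0 in any group. Of these markers 4 fell, among them Lrp2 and Cubn, the receptors for filtered protein, and Slc5a2 rose. By these markers the libraries are proximal tubule. In such bulk samples fewer cells of a type and less RNA per cell cannot be told apart. Summed CPM of 6 leukocyte markers was 35.02, 47.1 and 61.5 in AA, against 15.7, 12.5 and 13.0 in DMSO, and that of 4 thick ascending limb markers 292, 1237 and 649 in AA, against 399, 457 and 158 in DMSO. The 3 fibroblast markers summed to 76.1, 85.2 and 74.5 CPM in AA, against 37.2, 54.1 and 47.2 CPM in DMSO. Of the 5 leukocyte markers tested 2 rose (Cd68 and Cd79a), and of the fibroblast markers 2 of 3. The 5 collecting duct markers summed to 41.4, 89.1 and 65.4 CPM in AA, against 23.8, 32.7 and 15.9 CPM in DMSO, and Aqp2 and Hsd11b2 rose, at log2 fold changes of 2.16 and 1.14. The 4 endothelial markers summed to 118, 151 and 129.5 CPM in AA, against 112, 119 and 76.5 CPM in DMSO, and Pecam1 and Cdh5 rose, as did Cldn19 of the thick ascending limb (1.65). Of the distal convoluted tubule and podocyte markers 0 passed, 0 at an unadjusted p under 0.05 by limma and 0 by voom. The part of these cell types in the results below was not tested. Correlations of log2 values over tested genes were 0.970 to 0.980 within groups and 0.918 to 0.950 between groups. DMSO replicates 1 and 2 stood apart from the other 4 libraries by more than 2 on the log2 scale for 40 genes, none of them a synthetase.

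Promoters of 27 of the 36 genes were found in the RefSeq promoter table for GRCm38.p6, which gives 250 bases before and 50 after each start site. No entry was used for Cars, Hars, Hars2, Lars, Nars, Pars2, Rars, Vars or Wars. For Dars, Kars, Sars and Sars2 the bases after the start site were not found whole in an annotated transcript of the gene. Their windows were searched all the same. The element through which ATF4 and C/EBP proteins bind together, TGATGNAA, was searched for on both strands. It occurred in 5 of 13 cytosolic promoters and in 0 of 14 mitochondrial ones, beside 3.97% of 32851 promoters of all genes. The 5 windows are shown from 120 bases before to 30 after the start site, because they are the ones that carry the element, which 5 of the 8 searched synthetases listed as ATF4 targets have. Each is written 5′ to 3′ on the strand of the gene, with the matches in capitals; a match on the other strand reads TTNCATCA.
Aars, chr8:111033722-111033871, plus strand: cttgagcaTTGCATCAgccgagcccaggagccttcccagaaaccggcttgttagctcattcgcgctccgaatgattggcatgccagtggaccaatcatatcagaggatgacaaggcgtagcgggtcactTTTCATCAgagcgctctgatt
Gars, chr6:55037881-55038030, plus strand: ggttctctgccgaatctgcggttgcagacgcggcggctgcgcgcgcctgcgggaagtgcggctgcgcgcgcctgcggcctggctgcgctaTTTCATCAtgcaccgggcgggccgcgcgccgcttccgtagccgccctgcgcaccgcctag
Iars, chr13:49682010-49682159, plus strand: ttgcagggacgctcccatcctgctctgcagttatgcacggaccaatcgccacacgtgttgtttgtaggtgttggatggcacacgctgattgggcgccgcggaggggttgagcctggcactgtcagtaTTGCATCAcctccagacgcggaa
Tars, chr15:11399629-11399778, minus strand: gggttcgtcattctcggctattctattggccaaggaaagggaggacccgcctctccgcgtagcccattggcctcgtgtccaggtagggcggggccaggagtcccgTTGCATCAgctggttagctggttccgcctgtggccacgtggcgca
Yars, chr4:129189783-129189932, plus strand: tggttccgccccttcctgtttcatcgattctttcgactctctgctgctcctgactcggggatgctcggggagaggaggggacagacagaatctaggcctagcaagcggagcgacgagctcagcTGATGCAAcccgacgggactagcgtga

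Within these windows Aars held a match whose first base lay 112 bases before the start site and another at base 10 after it. Gars held its match 30 bases before the start site and Tars 15 bases before it. Iars and Yars held theirs at bases 8 and 4 after the start site, and Yars had the only match that read TGATGCAA on the strand of the gene itself. The E-box CACGTG, which reads the same on both strands, occurred in 4 of 13 cytosolic and in 1 of 14 mitochondrial promoters, beside 7.15% of all. A match is a run of letters and not a measured binding site.

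Of the 20 cytosolic synthetases, 8 rose and 0 fell, where 22.3% of all 14311 tested genes rose and 8.66% fell. Of the 16 mitochondrial synthetases, 1 rose and 3 fell. A gene counts as risen or fallen at an adjusted p under 0.05 in the limma test on log2(CPM + 1), fitted to the whole table. For 13 of the 20 cytosolic genes every AA library was above every DMSO library, which held for 33.4% of all tested genes, and for 0 the reverse held, against 13.0% of all. For the mitochondrial genes these counts were 2 and 3 of 16. No cytosolic gene was lower even at an unadjusted p under 0.05, by limma, and the voom fit on recovered reads also called 0 lower.

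The median log2 fold change of AA over DMSO was 0.34 over the cytosolic genes and 0.06 over the mitochondrial genes. Over all tested genes it was 0.21, so that the cytosolic median lay 0.14 above that of all genes and the mitochondrial median 0.15 below it (-0.15). Without Lars2, whose values are described further on, the mitochondrial median was 0.13. With library medians equalised, quantile normalization or TMM factors, 4 of the 20 cytosolic genes rose and 0 fell, while the mitochondrial counts stayed at 1 and 3. Without AA replicate 3 or DMSO replicate 1 also 4 cytosolic genes rose, and 5 without AA replicate 1 or 2. Under the 3 scalings 1606 to 1888 of all tested genes rose and 2077 to 2422 fell.

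Summed over the 20 cytosolic genes, transcripts reached 1694, 1744 and 1696 CPM in AA, against 1339, 1278 and 1501 CPM in DMSO. Every AA library was thus above every DMSO library on the CPM scale. The sums and values per kb given here were not rescaled, while TMM factors were 1.024, 1.11 and 1.103 in AA. In DMSO these factors were 0.8808, 0.9605 and 0.9428. Divided by their TMM factors, the sums of the groups overlap, with DMSO replicate 3 above AA replicates 2 and 3. Whether the sums separate with library medians equalised or quantile normalization was not tested. The 15 mitochondrial genes other than Lars2 summed to 495.3, 509.1 and 498.0 CPM in AA, against 479.5, 516.9 and 443.1 CPM in DMSO, and these ranges overlapped. Per kb of principal transcript, the median cytosolic enzyme had 26.7 CPM in AA and 18.7 CPM in DMSO. The median mitochondrial enzyme had 9.30 CPM per kb in AA and 8.99 CPM per kb in DMSO, below the cytosolic median in both groups.

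**Figure D1:**
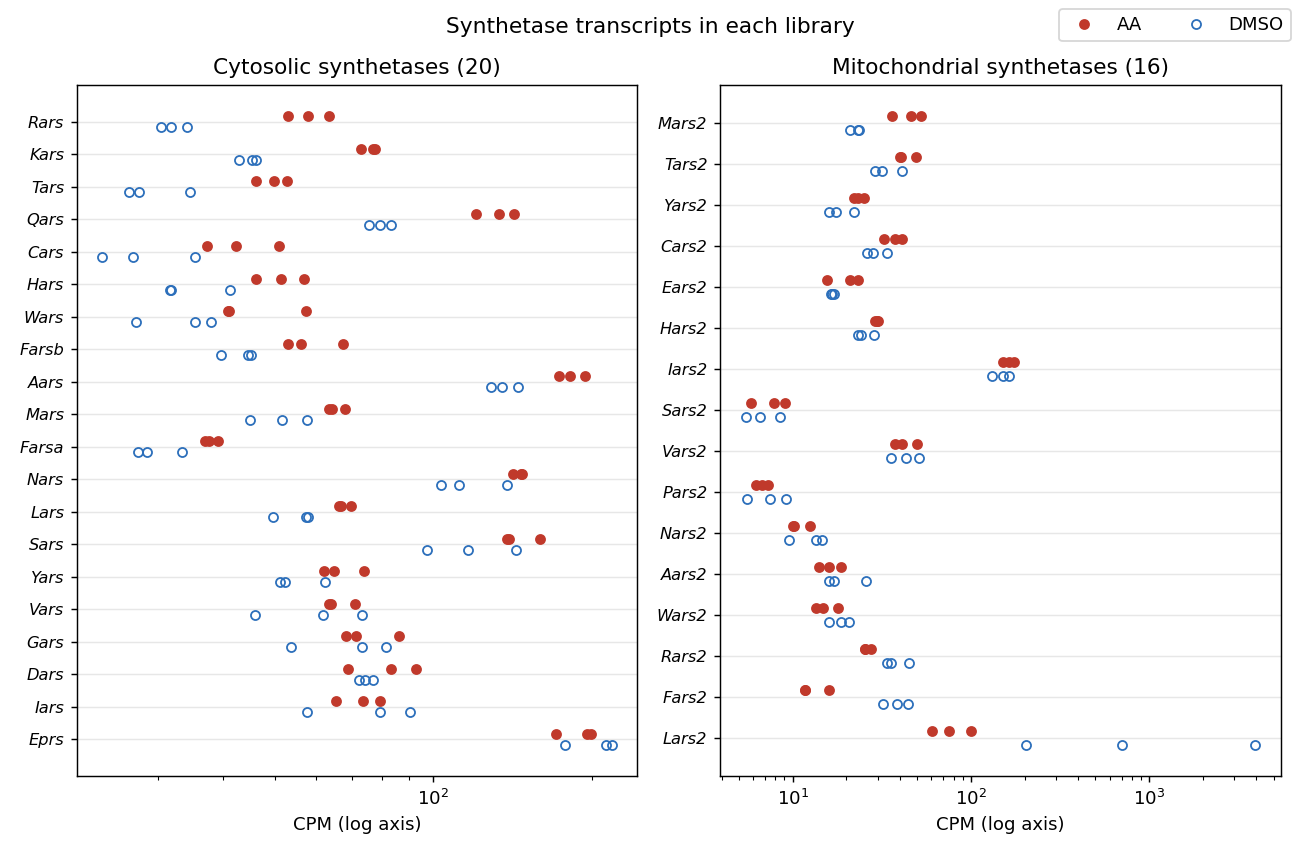
CPM on a log axis in each library for the 20 cytosolic (left) and 16 mitochondrial (right) synthetases, with filled points for the 3 AA libraries above open points for the 3 DMSO libraries, sorted by log2 fold change. The filled points lie fully to the right of the open ones for 13 cytosolic and 2 mitochondrial genes, and the DMSO libraries of Lars2 spread from 203 to 3925 CPM.

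The clearest rises among the cytosolic enzymes were in Rars, Kars and Qars, all of the multisynthetase complex, and in Tars. Rars (chr11:35808381-35834506, minus strand), which charges tRNA with arginine, had 52.9, 57.9 and 63.5 CPM in AA, against 34.1, 31.8 and 30.5 CPM in DMSO. The groups were far apart, and the log2 fold change was 0.83 (adjusted p = 0.00191 by limma, SE 0.14). Kars (chr8:111993443-112011323, minus strand), the lysyl enzyme of both compartments, had 73.0, 77.6 and 76.8 CPM in AA, against 45.3, 42.8 and 46.2 CPM in DMSO. Its AA libraries lay within a few CPM of each other, as did its DMSO libraries, and its log2 fold change was 0.75 (adjusted p = 0.00196 by limma, SE 0.13). Qars (chr9:108507706-108515941, plus strand), the glutaminyl enzyme, had 120.7, 133.1 and 142.0 CPM in AA, against 75.7, 79.3 and 83.1 CPM in DMSO. The lowest AA library exceeded the highest DMSO library, with a log2 fold change of 0.72 (adjusted p = 0.00219 by limma, SE 0.13). Tars (chr15:11382301-11399665, minus strand), the threonyl enzyme, had 46.1, 49.96 and 52.7 CPM in AA, against 27.7, 26.5 and 34.6 CPM in DMSO. DMSO replicate 3 was nearest to the AA libraries, and the log2 fold change was 0.73 (adjusted p = 0.00576 by limma, SE 0.16). These 4 genes passed whichever library was left out and under all 3 other scalings, where their log2 fold changes were 0.47 to 0.65. With a term for the set of DMSO replicates 1 and 2, which sets AA against DMSO replicate 3 alone, Qars (adjusted p = 0.0522 by limma) and Tars (adjusted p = 0.16 by limma) no longer passed.

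Smaller rises were found in Cars, Hars, Farsb and Aars, each without overlap between the groups. Cars, the cysteinyl enzyme, had 42.2, 37.2 and 50.9 CPM in AA, against 26.9, 23.6 and 35.3 CPM in DMSO, a log2 fold change of 0.59 (adjusted p = 0.0335 by limma, SE 0.19). Hars, the histidyl enzyme, had 46.1, 57.0 and 51.5 CPM in AA, against 31.7, 41.1 and 31.8 CPM in DMSO, a log2 fold change of 0.55 (adjusted p = 0.024 by limma, SE 0.16). In both genes 1 DMSO library, replicate 3 for Cars and replicate 2 for Hars, came close to the lowest AA library. Farsb, the beta subunit of the phenylalanyl enzyme, had 56.2, 67.5 and 52.9 CPM in AA, against 45.2, 39.6 and 44.5 CPM in DMSO, a log2 fold change of 0.44 (adjusted p = 0.044 by limma, SE 0.15). Aars, the alanyl enzyme, had 193.9, 173.3 and 181.4 CPM in AA, against 128.7, 134.9 and 144.6 CPM in DMSO, a log2 fold change of 0.42 (adjusted p = 0.0251 by limma, SE 0.12).

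None of these 4 calls survived the 3 other scalings, where limma adjusted p was 0.0512 to 0.408. Farsb no longer passed whichever of the 6 libraries was left out (limma adjusted p 0.0606 to 0.173). Aars was lost without AA replicates 1, 2 or 3 or DMSO replicate 1 (0.054 to 0.0797). Cars was lost without AA replicates 1 or 3 or DMSO replicates 1 or 2 (0.07 to 0.13), and Hars without AA replicates 2 or 3 or DMSO replicates 1 or 3 (0.0661 to 0.097). Of the 31-base words in their transcripts, Aars shares 20.3% with Exosc6, Farsb 9.45% with Sgpp2 and Hars 8.32% with other genes, mostly Hars2. How reads from such shared words were assigned is not known here.

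Another 12 cytosolic genes did not pass. Wars, the tryptophanyl enzyme, had 41.0, 57.4 and 40.9 CPM in AA, against 27.3, 35.3 and 37.9 CPM in DMSO, without overlap but with a limma adjusted p of 0.0844. Mars, Farsa, Nars and Lars, which charge methionine, phenylalanine (with Farsb), asparagine and leucine, also had every AA library above every DMSO library, at log2 fold changes of 0.30 to 0.35 that did not pass. Farsa, the alpha subunit of the same enzyme as Farsb, had 37.0, 39.1 and 37.6 CPM in AA, against 27.5, 33.3 and 28.7 CPM in DMSO (adjusted p = 0.106 by limma). Sars and Yars, the seryl and tyrosyl enzymes, had log2 fold changes of 0.30 and 0.27, and 1 DMSO library of each reached into the AA range.

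The remaining 5 cytosolic genes were close to equal in both groups. Vars, Gars and Dars, for valine, glycine and aspartate, had log2 fold changes of 0.15, 0.13 and 0.12, which turned negative with all 3 other scalings (-0.14 to -0.01). Eprs, the joined enzyme for glutamate and proline, had 195.9, 199.1 and 171.0 CPM in AA, against 212.9, 177.7 and 217.9 CPM in DMSO, with a log2 fold change of -0.10 (SE 0.14). Iars, the isoleucyl enzyme, had 79.1, 73.7 and 65.5 CPM in AA, against 79.3, 57.5 and 90.4 CPM in DMSO, with a log2 fold change of -0.04 (SE 0.17). The DMSO libraries of Iars enclosed all 3 AA libraries. Iars also shares 17.2% of its 31-base words with other genes, mostly Gm4849.

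**Figure D2:**
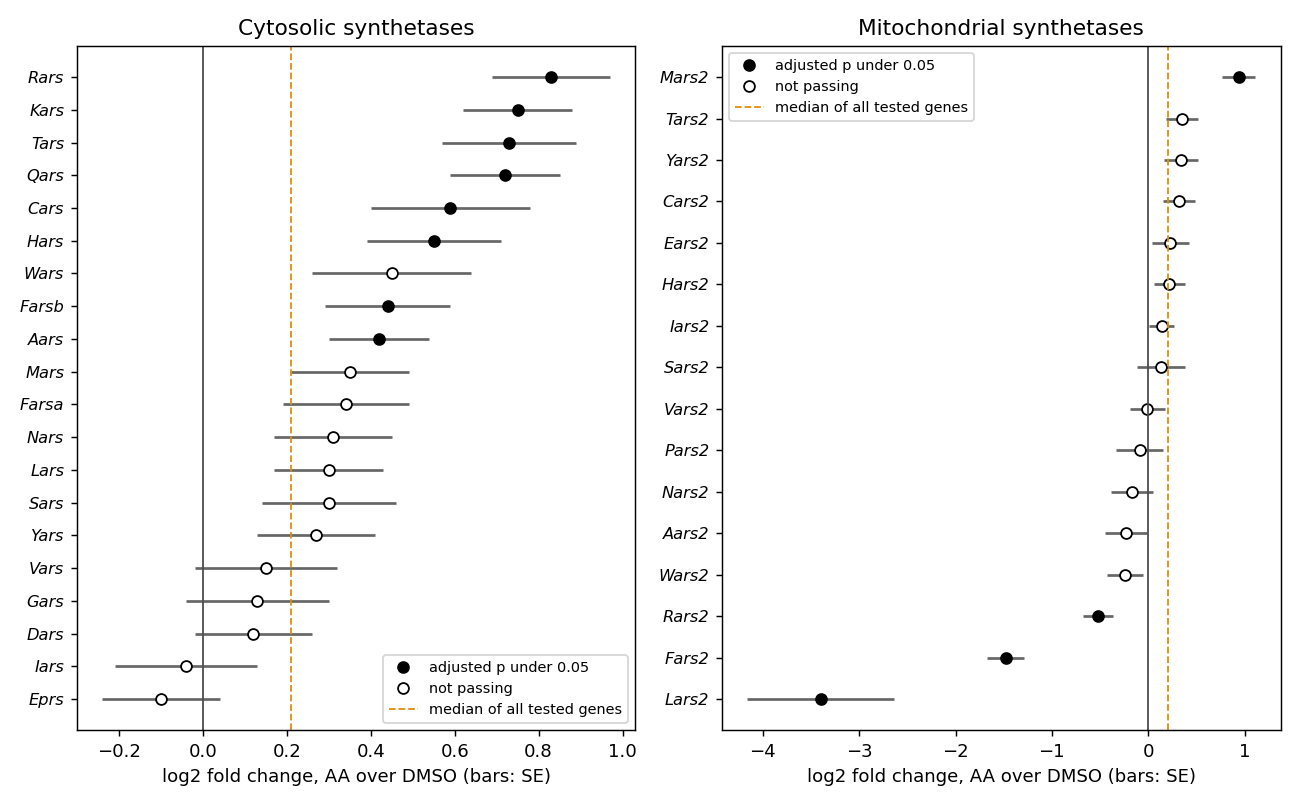
Log2 fold change of AA over DMSO with its standard error for each synthetase, cytosolic left and mitochondrial right on different axes; filled points passed at an adjusted p under 0.05, and the dashed line marks the median of all tested genes at 0.21. In the cytosolic panel 8 of 20 points are filled and lie to the right, and in the mitochondrial panel Mars2 lies to the right and Rars2, Fars2 and Lars2 to the left.

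Within the cytosolic set the known ATF4 targets were set beside the other enzymes. Of the 12 synthetases listed as ATF4 targets 3 rose (Aars, Cars and Tars), with a median log2 fold change of 0.31. Of the 8 others 5 rose (Rars, Kars, Qars, Hars and Farsb), with a median of 0.50. The share of all tested genes that rose was 22.3%, and the median over all of them was 0.21. With the 3 other scalings 1 of the 12 and 3 of the 8 rose, beside 1606 to 1888 of all 14311 tested genes. Without AA replicates 1 or 3 or DMSO replicate 1, 1 of the 12 rose, and 2 rose without AA replicate 2 or DMSO replicate 2. Among the 5 genes whose promoters carry TGATGNAA, Tars and Aars rose, while Yars, Gars and Iars did not pass, and the median of the 5 was 0.27. No difference between these sub-groups was tested, and each is a description of the members listed.

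Of the 8 synthetases in the multisynthetase complex 3 rose, beside 22.3% of all tested genes, with a median log2 fold change of 0.32. Of the 12 outside it 5 rose, with a median of 0.38. The complex thus held both the highest and the lowest log2 fold changes of the cytosolic set, Rars at 0.83 and Eprs at -0.10. The scaffold Eef1e1 had 13.5, 17.8 and 16.3 CPM in AA, against 8.70, 6.52 and 8.52 CPM in DMSO, a log2 fold change of 0.92 (adjusted p = 0.00807 by limma, SE 0.21). Aimp2, another scaffold, had 6.99, 8.93 and 7.25 CPM in AA, against 4.52, 4.43 and 3.76 CPM in DMSO, a log2 fold change of 0.73 (adjusted p = 0.0303 by limma, SE 0.23). Aimp1, the third scaffold, had 17.9, 17.6 and 17.3 CPM in AA, against 13.9, 12.1 and 14.2 CPM in DMSO, and did not pass at a log2 fold change of 0.37 (adjusted p = 0.131 by limma). Of these scaffolds 1 of 3 passed with the 3 other scalings and without each library except AA replicate 1. By fold of the catalytic domain, 3 of 10 class I and 5 of 10 class II enzymes rose, with medians of 0.32 and 0.38. With the other scalings 2 of each class rose, beside 1606 to 1888 of all 14311 tested genes.

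The mitochondrial enzymes held the widest range of the family, with log2 fold changes from -3.40 to 0.94. Mars2 (chr1:55237177-55248470, plus strand), the mitochondrial methionyl enzyme, had 36.2, 45.9 and 52.5 CPM in AA, against 23.7, 21.1 and 23.4 CPM in DMSO. Its AA libraries spread more than its DMSO libraries but did not overlap them, and the log2 fold change was 0.94 (adjusted p = 0.00273 by limma, SE 0.17). Fars2 (chr13:36117412-36726280, plus strand), the mitochondrial phenylalanyl enzyme, had 11.7, 16 and 11.7 CPM in AA, against 38.6, 44.2 and 32.1 CPM in DMSO. Each AA library lay well under the lowest DMSO library, with a log2 fold change of -1.48 (adjusted p = 0.000402 by limma, SE 0.19). Rars2 (chr4:34614957-34660167, plus strand), the mitochondrial arginyl enzyme, had 25.3, 27.4 and 25.5 CPM in AA, against 44.8, 33.9 and 35.7 CPM in DMSO. The AA libraries were nearly equal, and the log2 fold change was -0.52 (adjusted p = 0.031 by limma, SE 0.16). Mars2 and Fars2 passed under all 18 alternatives. Rars2 passed with all 3 other scalings but not without AA replicates 1, 2 or 3 or DMSO replicate 1 (limma adjusted p 0.0666 to 0.107).

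Lars2 (chr9:123366927-123462666, plus strand), the mitochondrial leucyl enzyme, had 100.2, 75.2 and 60.7 CPM in AA, against 3925, 203 and 704 CPM in DMSO. All AA libraries were lower, but the DMSO libraries differed from each other far more than the AA libraries did. The log2 fold change was -3.40 (adjusted p = 0.00729 by limma, SE 0.76), and it no longer passed with a robust variance (adjusted p = 0.113 by limma) or with the term for the set of DMSO replicates 1 and 2 (adjusted p = 0.0648 by limma). Leaving out DMSO replicate 1, the highest library, kept the call at a log2 fold change of -2.28, and leaving out DMSO replicate 2, the lowest of that group, gave -4.41. Per kb of transcript, Lars2 averaged 20.2 CPM in AA and 413.5 CPM in DMSO, where the median mitochondrial enzyme had 8.99 CPM per kb in DMSO. Of the 4527 31-base words of its transcripts 42 occur in other genes, 26 of them in AA474408 and 22 in Gm15564. The deposited values hold neither gene under these symbols, so that their levels could not be analysed here. The part of such shared sequence in the values of Lars2 was not tested.

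The other 12 mitochondrial enzymes did not pass in the fit reported or in any of the 18 alternatives, and their log2 fold changes ran from -0.24 to 0.35. Hars2 had 29.9, 30.03 and 29.2 CPM in AA, against 23.2, 28.8 and 24.3 CPM in DMSO. This was the only one of the 12 without overlap, at a log2 fold change of 0.22, which became -0.04 with library medians equalised and -0.01 with quantile normalization. Tars2, Yars2 and Cars2 stood highest among them, at log2 fold changes of 0.35, 0.34 and 0.32. Ears2, Iars2 and Sars2, for glutamate, isoleucine and serine, lay between 0.13 and 0.23, each with at least 1 other scaling that made it negative. Iars2 shares 31.6% of its 31-base words with other genes, mostly Rab3gap2, and Cars2 shares 19.4% with Naxd. Vars2, Pars2, Nars2, Aars2 and Wars2 lay between -0.24 and -0.01 with overlapping groups.

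Comparing the cytosolic with the mitochondrial enzyme of the same amino acid inside each library nearly removes the scaling between libraries. Such log2 ratios could be formed for 17 pairs covering 16 amino acids, since the cytosolic phenylalanyl enzyme has an alpha and a beta subunit and Eprs serves both glutamate and proline. They are not per length, so that their sign does not say which enzyme has more transcripts. The ratio was higher in AA for 12 pairs and lower for 5, with a median difference of 0.33 on the log2 scale. For arginine, the log2 ratio of Rars over Rars2 was 1.03, 1.05 and 1.28 in AA, against -0.38, -0.09 and -0.22 in DMSO. The groups lay far apart, at 1.12 ± 0.14 in AA and -0.23 ± 0.15 in DMSO (SD, n = 3 each), a difference of 1.35. For phenylalanine, Farsa over Fars2 was 1.58, 1.24 and 1.60 in AA, against -0.47, -0.40 and -0.16 in DMSO, a difference of 1.82, and Farsb over Fars2 differed by 1.91. For both subunits every AA library was above every DMSO library.

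Methionine went the other way, with Mars over Mars2 at 0.81, 0.46 and 0.37 in AA, against 1.09, 1.05 and 1.26 in DMSO, a difference of -0.59. For leucine the log2 ratio of Lars over Lars2 was -0.59, -0.17 and 0.20 in AA, against -6.27, -1.80 and -3.60 in DMSO, a difference of 3.70 that carries the wide spread of Lars2. Wars over Wars2 differed by 0.69, Aars over Aars2 by 0.66 and Hars over Hars2 by 0.33, without overlap between the groups. Isoleucine, tyrosine and the Eprs over Pars2 ratio for proline differed by -0.17, -0.07 and -0.01, well inside their spread. With 3 libraries a group the two-sided exact permutation test cannot give less than 0.1, and after adjustment over the 17 ratios no p was under 0.213, so that none of these ratios can pass.

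**Figure D3:**
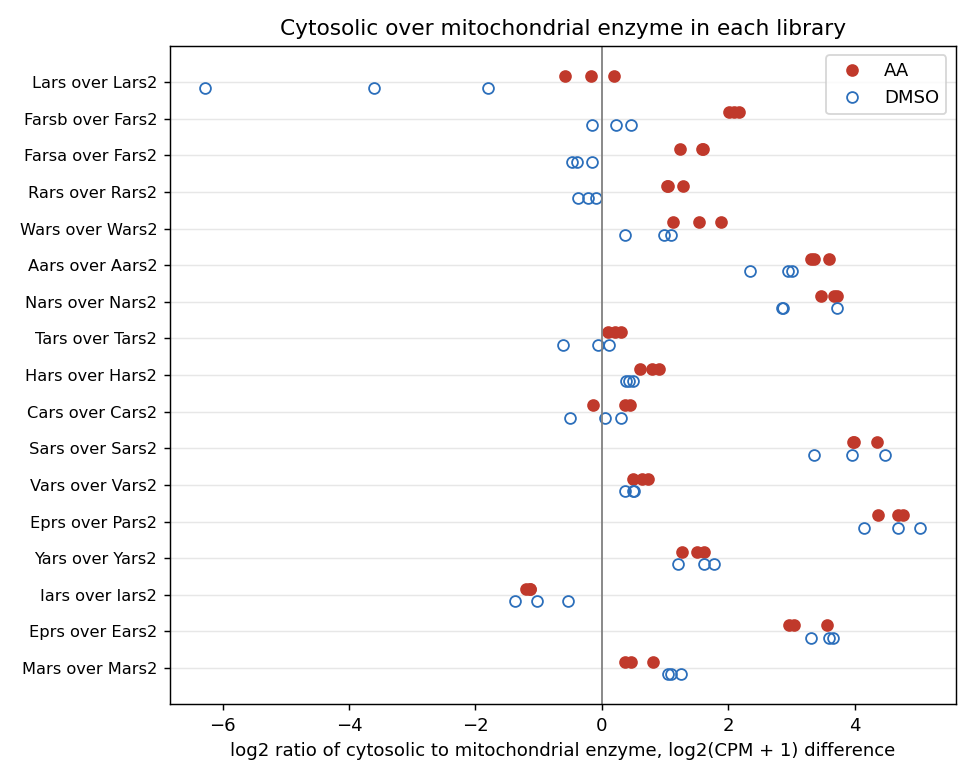
Log2 ratio of cytosolic over mitochondrial enzyme in each library for 17 pairs, from log2(CPM + 1), with filled points for AA above open points for DMSO, sorted by the difference of AA minus DMSO. The arginine and phenylalanine pairs separate to the right in AA, the methionine pair separates to the left, and the leucine pair shows the spread of the DMSO libraries.

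The 3 synthetases that fell all span more than the median of the family. Fars2 spans 608.9 kb in GENCODE M21 (GRCm38), Lars2 95.7 kb and Rars2 45.2 kb, and the median over the 36 genes is 25.3 kb. Mars2, the mitochondrial gene that rose, spans 11.3 kb, the length of its principal transcript. The cytosolic genes reach only from 8.24 kb (Qars) to 70.9 kb (Farsb). Over the 36 genes the Spearman correlation between span and log2 fold change was -0.39, over the 34 genes without Lars2 and Fars2 it was -0.28, and over 13895 tested genes with a span it was also -0.28. These are descriptions over genes measured in the same libraries, and genes are not independent replicates. Of 1876 tested genes spanning at least 100 kb, a limit chosen after values were seen, 509 fell (27.1%) and 182 rose (9.70%), with a median log2 fold change of -0.21. In the family Fars2 and Nars2, at 113.3 kb, reach that limit, and Nars2 did not pass at -0.17. Wars2, at 98.1 kb, had a log2 fold change of -0.24 and did not pass either.

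**Figure D4:**
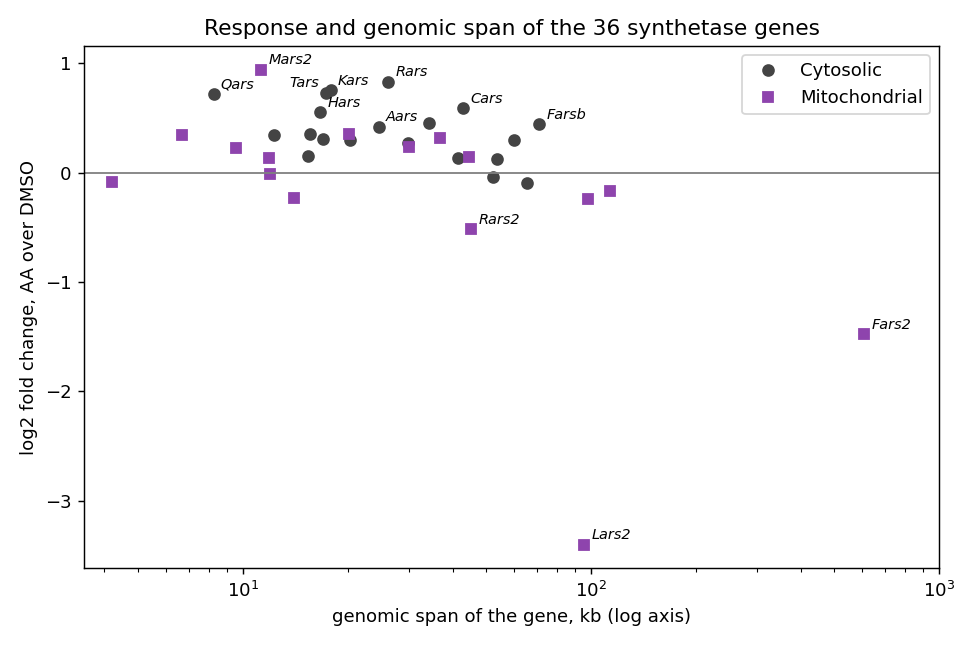
Log2 fold change of AA over DMSO against the genomic span in kb (log axis) of the 36 synthetase genes, circles for cytosolic and squares for mitochondrial enzymes, with names for the 12 that passed. Fars2 at 608.9 kb stands alone at the right with -1.48, and the cytosolic genes reach 70.9 kb.

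Genes that prepare tRNA before charging were compared with the synthetases. Of 24 tested genes for tRNA processing, modification and export 10 rose and 0 fell, beside 22.3% and 8.66% of all tested genes. Their median log2 fold change was 0.44. At an unadjusted p under 0.05 limma also gave 0 lower, and voom called 9 higher and 0 lower. Rpp38, a subunit of RNase P that trims tRNA ends, had 8.87, 7.02 and 10.9 CPM in AA, against 2.51, 2.15 and 1.69 CPM in DMSO, a log2 fold change of 1.66 (adjusted p = 0.000966 by limma, SE 0.25). Trmt61a and Trmt6, the subunits of an enzyme that methylates adenosine in tRNA, rose by log2 fold changes of 1.36 and 0.78. Ssb, the La protein that binds new tRNA transcripts, had 73.8, 94.8 and 87.6 CPM in AA, against 50.9, 43.6 and 57.7 CPM in DMSO, a log2 fold change of 0.74. Nsun2, a cytosine methylase of tRNA, had a log2 fold change of 0.59. All 5 of these genes, named by smallest adjusted p, were higher in every AA library than in any DMSO library. The same held for 13 of the 24 genes and for 33.4% of all tested genes. With the other scalings 4 to 7 of the 24 rose, 6 rose without AA replicates 2 or 3, and 2 with the term for DMSO replicates 1 and 2.

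Of 9 cytosolic elongation and termination factors 3 rose and 0 fell, beside 22.3% and 8.66% of all tested genes. Those that rose were Etf1, the release factor, at a log2 fold change of 0.78, Eef1b2 at 0.64 and Eef1g at 0.38. Eef1b2 and Eef1g are subunits of elongation factor 1. With the other scalings 1 to 4 rose and 0 or 1 fell, and at an unadjusted p under 0.05 limma gave 4 higher and 0 lower, while voom called 3 higher and 0 lower. Another list of 6 genes held editing factors, synthetase-like proteins and the GTP-binding protein Gtpbp2. In this list Dtd1, which removes D-amino acids from tRNA, fell. Its log2 fold change was -1.07 (adjusted p = 0.0197 by limma, SE 0.30), and it spans 168.9 kb. It no longer passed without AA replicate 3 or DMSO replicate 2. The other 5, Aarsd1 (-0.35), Dtd2 (0.40), Prorsd1 (0.41), Tarsl2 (0.19) and Gtpbp2 (0.27), did not pass.

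Of 5 genes of the route that makes and uses selenocysteine on its tRNA, 2 fell and 0 rose. Of all tested genes 8.66% fell and 22.3% rose. With the 3 other scalings 2077 to 2422 of all 14311 tested genes fell, beside 1239 in the fit reported. The median log2 fold change of the 5 was -0.37. Eefsec, the elongation factor for selenocysteine, had 15.5, 17.9 and 16.1 CPM in AA, against 38.0, 46.8 and 35.9 CPM in DMSO, a log2 fold change of -1.23 (adjusted p = 0.000523 by limma, SE 0.17), and it spans 189.2 kb. Sepsecs, which forms selenocysteinyl-tRNA, had 52.7, 55.5 and 55.7 CPM in AA, against 83.9, 65.9 and 82.9 CPM in DMSO, a log2 fold change of -0.49 (adjusted p = 0.0239 by limma, SE 0.14). In both genes all AA libraries were lower. Limma gave 0 higher and 3 lower of the 5 at an unadjusted p under 0.05, and voom called 0 higher and 2 lower. Without 1 library the number lower was 1 without AA replicates 1, 2 or 3 or DMSO replicates 1 or 3, and 3 without DMSO replicate 2. With library medians equalised and with TMM factors 4 of the 5 fell, with quantile normalization 2, and with the term for DMSO replicates 1 and 2 the number was 1.

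Mitochondrial ribosomal proteins and translation factors had median log2 fold changes of 0.16 and 0.09, beside 0.21 over all tested genes. Of 76 mitochondrial ribosomal proteins 12 rose and 0 fell, where 22.3% of all tested genes rose and 8.66% fell. Those with the smallest adjusted p were Mrps17, Mrpl10, Mrpl9, Mrps18b and Mrpl38, at log2 fold changes of 0.99, 0.66, 0.62, 0.56 and 0.57. These counts turned with the scaling, as did those of all tested genes. With the 3 other scalings 2 rose and 6 to 9 fell, beside 1606 to 1888 and 2077 to 2422 of all 14311 genes. Among the 76, 3 rose without AA replicate 2, 5 without DMSO replicate 3 and 6 without AA replicate 3 or DMSO replicate 1. Limma gave 18 higher and 2 lower at an unadjusted p under 0.05, and voom called 12 higher and 0 lower. Of 17 mitochondrial translation factors and tRNA enzymes Trmt10c, a subunit of mitochondrial RNase P, rose, with 37.3, 44.2 and 64.5 CPM in AA, against 20.2, 17.2 and 20.5 CPM in DMSO, a log2 fold change of 1.26 (adjusted p = 0.0014 by limma, SE 0.20). Gfm2, a ribosome recycling factor, and Lrpprc, which stabilises mitochondrial mRNA, fell, at log2 fold changes of -0.48 and -0.43, and the number that fell was 0 without AA replicate 1 and 1 without AA replicates 2 or 3 or DMSO replicates 1 or 2. The genes for mitochondrial glutaminyl-tRNA and formylmethionyl-tRNA, Gatb (-0.12), Gatc (0.46), Qrsl1 (0.20) and Mtfmt (-0.03), did not pass, with 0 of 4 either way at an unadjusted p under 0.05 by limma and 0 called by voom.

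ATF4 and its known targets outside the synthetases went in both directions. Of 22 such genes 6 rose and 4 fell, beside 22.3% and 8.66% of all tested genes. Their median log2 fold change was 0.32. Without DMSO replicate 1, 4 rose and 3 fell, and without AA replicate 2, 6 rose and 2 fell. Atf4 itself had 78.8, 93.7 and 119.99 CPM in AA, against 51.0, 35.97 and 39.6 CPM in DMSO, a log2 fold change of 1.18 (adjusted p = 0.00114 by limma, SE 0.18). Its groups did not overlap. Slc3a2, the heavy chain of amino acid transporters, had 219.4, 184.0 and 216.6 CPM in AA, against 56.7, 43.8 and 43.7 CPM in DMSO, a log2 fold change of 2.09 (adjusted p = 8.7e-06 by limma, SE 0.15). Sesn2, a sensor of leucine, and Ddit3, the stress factor CHOP, rose at log2 fold changes of 1.36 and 1.66. In contrast Shmt2, the mitochondrial serine hydroxymethyltransferase, had 141.7, 143.9 and 156.5 CPM in AA, against 226.2, 287.0 and 231.2 CPM in DMSO, a log2 fold change of -0.74 (adjusted p = 0.00277 by limma, SE 0.14).

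Named after their values were seen, Phgdh, the first enzyme of serine synthesis, fell at -1.38 (adjusted p = 0.00908 by limma), and Asns, asparagine synthetase, did not pass at -0.69 (adjusted p = 0.0859 by limma). Of 6 genes for the kinases and phosphatase subunits of the eIF2 alpha pathway, which controls ATF4, Ppp1r15a rose, at a log2 fold change of 2.01 (adjusted p = 0.000104 by limma, SE 0.21). Eif2ak1 (-0.34), Eif2ak2 (-0.40), Eif2ak3 (0.27), Eif2ak4 (0.07) and Ppp1r15b (-0.01) did not pass. Limma gave 2 of the 6 lower at an unadjusted p under 0.05 and voom called 0 lower. With each of the 3 other scalings 2 of the 6 fell, beside 2077 to 2422 of all 14311 tested genes.

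**Figure D5:**
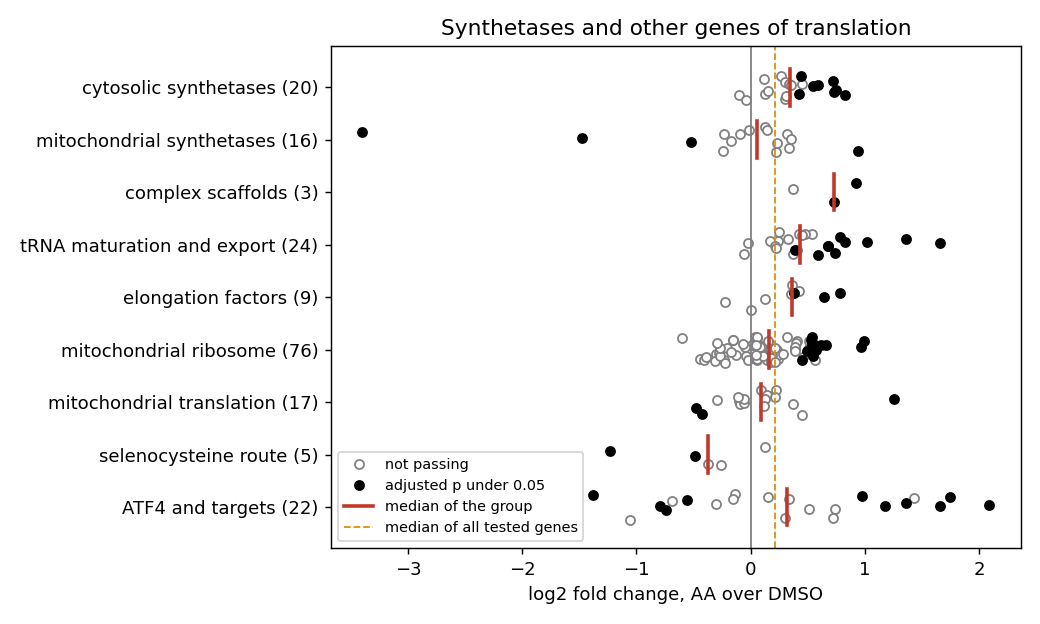
Log2 fold change of AA over DMSO of each tested gene (points, spread vertically at random) in the cytosolic and mitochondrial synthetases and in 7 other lists, with filled points for genes at an adjusted p under 0.05, red bars for list medians and a dashed line for the median of all tested genes, 0.21. The medians of the cytosolic synthetases (0.34), tRNA maturation (0.44) and the scaffolds (0.73) lie right of the dashed line, and those of the mitochondrial synthetases (0.06), mitochondrial ribosome (0.16) and selenocysteine route (-0.37) left of it.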

How the data were processed

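The table deposited by the authors holds log10 values of 32544 genes in 6 libraries, which are log10(CPM + 1) as far as the values show. Per the submitters' processing notes, bcl2fastq 2.19 and kallisto were used with build mm10; the sources used here do not give the version or role of kallisto, the annotation, the strand setting or how transcripts were joined to genes. Per the labels' protocols, a PicoPure kit gave the RNA and the TruSeq Stranded mRNA kit the libraries. The table has 27 symbols turned into dates and 2 that occur more than once.

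Values were turned back to CPM, and whole reads came out for 100.0% of values within 0.1 read; 1 read stood for 0.0321 to 0.0752 CPM. The 14311 genes that reached 1 CPM in 3 or more libraries were tested on log2(CPM + 1) with limma 3.58.1 in R 4.3.3 (moderated test with variance trend, two-sided, Benjamini-Hochberg over all tested genes, with calls at adjusted p under 0.05). SE stands for limma's moderated standard error. The pseudocount of 1 understates changes of low genes. The design had assumed log2 CPM, and the test was kept. Ratios used the exact permutation test of scipy over 6 libraries. The fit was also run on simulated data in which few genes changed, as many up as down. That run does not bear on the scaling between libraries.

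Members and gene lists were chosen with earlier results of these data known, the lists from general knowledge. Named were all members and up to 5 genes per other list by smallest adjusted p, lists of 6 or fewer whole. The 18 alternatives were 3 scalings (library medians equalised, quantile normalization, TMM factors by own implementation), no filter and a 4 CPM filter, pseudocounts of 0.1 and 5, no variance trend, a robust variance, a replicate block, a library-set term, voom on recovered reads, and leaving out each library. Medians and sums without Lars2 were added after the data were seen. Spans, transcripts and shared 31-base words came from GENCODE M21, promoters from RefSeq.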

Additional observations from a re-analysis of the deposited data

How the results depend on the processing

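With library medians equalised 4 cytosolic synthetases rose, 1606 of all tested genes rose and 2422 fell, and the medians were 0.08 over cytosolic and -0.20 over mitochondrial synthetases; with quantile normalization 4 cytosolic rose, 1822 of all rose and 2077 fell, and the mitochondrial median was -0.20; with TMM factors 4 cytosolic rose, 1888 of all rose and 2095 fell, and the medians were 0.13 and -0.15. Without a variance trend 5 cytosolic synthetases rose. With the library-set term 2 cytosolic synthetases rose and 1 mitochondrial fell, 1058 of all genes rose and 423 fell, and the mitochondrial median was 0.21; this fit rests on DMSO replicate 3 alone. Leaving out each library in turn gave 4 to 6 cytosolic synthetases that rose (without DMSO replicate 1 or AA replicate 3, 4), 1842 to 2839 of all genes that rose and 803 to 1141 that fell (the lowest without AA replicate 2), and mitochondrial medians of -0.02 (without AA replicate 1) to 0.13. Causes were not tested.

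Log2 fold changes of uncalled members changed sign as follows. With library medians equalised they were -0.14 for Dars, -0.13 for Gars, -0.11 for Vars, -0.03 for Ears2, -0.04 for Hars2, -0.12 for Iars2 and -0.13 for Sars2. With quantile normalization they were -0.02 for Dars, -0.02 for Gars, -0.01 for Vars, -0.04 for Ears2, -0.01 for Hars2 and -0.21 for Sars2. With TMM factors they were -0.09 for Dars, -0.08 for Gars, -0.06 for Vars, -0.08 for Iars2 and -0.06 for Sars2. With the library-set term they were -0.11 for Gars and 0.18 for Nars2. With a library left out they were -0.14 to 0.12 for Vars2, -0.22 to 0.10 for Iars, -0.02 to 0.30 for Vars, -0.04 to 0.25 for Gars, -0.26 to 0.06 for Pars2 and -0.0 to 0.29 for Sars2. Over the 36 members and 18 alternatives 567 values kept direction and side of the threshold, 51 lost their call and 30 changed sign; no member gained a call.

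Libraries with the same number in AA and DMSO deviated from their group means with correlations of -0.109, -0.156 and -0.015, so that the numbers do not pair them. With the replicate as a block 6 cytosolic synthetases rose and 2 mitochondrial fell, and 2768 of all genes rose and 1045 fell. With 13304877 to 31136251 reads a library, depth limits the synthetases at a few CPM most, such as Pars2 and Sars2.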
